A study of Homo sapiens with 6 samples.

Results

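The genes described here were CC chemokines and other chemokines that direct leukocytes or tumor cells into tissues, with the receptor CXCR4. They were chosen by gene symbol and comprised 10 of the 58735 genes in the count table: the CC chemokines CCL2, CCL5, CCL20, CCL26 and CCL28, the CX3C chemokine CX3CL1, the CXC chemokines CXCL12, CXCL14 and CXCL16, and CXCR4. Their RNA was measured by bulk RNA-seq in MDA-MB-231, a human cell line of triple-negative breast cancer, in 2 groups of 3 libraries. The parent group was the unselected line, and the ADRr group was a subline resistant to Adriamycin (doxorubicin), an anthracycline. The methods describe stepwise selection in rising drug concentrations followed by isolation of single clones. The ADRr columns carry 1 line name throughout, so differences between clones of the resistant line were not measured. Neither the labels nor the methods name drug exposure at harvest, and nothing says that the 3 libraries of a group came from separate cultures, so p-values measure the spread between these libraries, which may be technical. The comparison asked which of these genes differed between resistant and parent cells.

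Chemokines are small secreted or membrane-tethered proteins that bind G protein-coupled receptors and steer cells along a concentration gradient. Families are named for the spacing of the first cysteines of the mature protein, which form disulfide bonds with cysteines further along the chain. CX3CL1 and CXCL16 are unusual in being made as transmembrane proteins with the chemokine at the end of a mucin-like stalk, from which ADAM10 and ADAM17 release it. In breast tumors, CCL2 and CCL5 are known for recruiting monocytes and T cells, and CXCR4 is known as the receptor through which tumor cells respond to CXCL12 in organs where they settle.

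The 9 ligands are shown by the coding stretch around their first cysteine pair, because that stretch places each gene in its family. It was read from GRCh38 transcripts, on the gene's strand, with the cysteine codons of the motif in capitals. In the CC ligands both codons are adjacent, as in the stretches of the raised CCL2 and CCL5 and of CCL20, CCL26 and CCL28, which were not called.
CCL2 (chr17:34256227-34256268, plus strand, exon 2): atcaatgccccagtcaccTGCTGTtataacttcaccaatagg
CCL5 (chr17:35878596-35878637, minus strand, exon 2): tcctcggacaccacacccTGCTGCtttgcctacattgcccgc
CCL20 (chr2:227813987-227815494, plus strand, across exons 1 and 2): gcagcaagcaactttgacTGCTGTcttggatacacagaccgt
CCL26 (chr7:75771957-75771998, minus strand, exon 2): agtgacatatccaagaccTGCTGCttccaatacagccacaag
CCL28 (chr5:43388430-43388471, minus strand, exon 2): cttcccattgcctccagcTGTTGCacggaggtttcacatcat
In the CXC ligands 1 codon lies between the cysteines, and in CX3CL1 3 codons do.
CXCL12 (chr10:44380828-44380872, minus strand, exon 2): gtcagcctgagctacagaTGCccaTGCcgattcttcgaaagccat
CXCL14 (chr5:135578505-135578724, minus strand, across exons 1 and 2): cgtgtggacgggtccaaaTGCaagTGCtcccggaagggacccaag
CXCL16 (chr17:4738862-4738906, minus strand, exon 2): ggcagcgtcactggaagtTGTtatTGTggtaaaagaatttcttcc
CX3CL1 (chr16:57379639-57379689, plus strand, exon 2): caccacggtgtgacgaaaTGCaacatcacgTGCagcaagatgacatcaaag
The reading frame was also longest in the transmembrane ligands, with 397 codons in CX3CL1 and 273 in CXCL16, against 89 to 127 in the other 7 ligands. Among the CC ligands below, CCL2 and CCL5 rose and CCL20, CCL26 and CCL28 were not called. Among the 9 ligands, CXCL16 and CX3CL1, which rose, were the only tested ones of their families, since CXCL12 and CXCL14 were barely counted. Whether fold changes follow family could therefore not be told from these 9 ligands. CXC chemokines outside the members were also tested, and some are given below.

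Libraries held 15983985 to 18272314 counts, so that 3 counts, used here as the floor of detection, corresponded to 0.164 to 0.188 CPM (counts scaled to an equal library total). Mitochondrial transcripts took 4.63 to 5.26% of counts. VIM, CD44, AXL, CAV1, EGFR and MSN, markers of this line, were present in every library, and the hormone receptor genes ESR1 and PGR had at most 1 count. CDH1, an epithelial cadherin listed as absent or low in this line, was counted, with 233 to 259 counts in parent and 108 to 133 in ADRr libraries, and was called lower (log2 fold change -1.07, adjusted p = 3.72e-07). Of 10 leukocyte markers, 8 stayed under 1 CPM in every library, with PTPRC at 0 to 2 counts and TYROBP at 0. The only one called was CSF1R, which was lower in ADRr cells. The summed level of the list was 8.59 to 12.2 CPM in parent and 7.35 to 7.84 in ADRr libraries. Of 8 fibroblast markers 4 stayed under 1 CPM, with DCN at 0, and 4 were called lower in ADRr cells. Their sum was 160.8 to 163.8 CPM in parent and 28.9 to 32.2 in ADRr libraries. Of 6 endothelial markers 5 stayed under 1 CPM and 1, KDR, was called higher, with sums of 3.25 to 5.25 in parent and 8.54 to 9.54 in ADRr libraries. The part of the fibroblast and endothelial genes in the results below was not tested.

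In ADRr cells 4 ligands rose and the receptor CXCR4 fell. CCL5, which attracts T cells and monocytes, rose 17.4-fold, the transmembrane ligands CX3CL1 and CXCL16 rose 5.73-fold and 3.88-fold, and CCL2, the main monocyte attractant, rose 3.32-fold. CCL20, CCL26 and CCL28 were not called in edgeR's test over the 6 libraries, and CXCL12 and CXCL14 had too few counts to be tested. A gene was called changed when its adjusted p in edgeR's quasi-likelihood test was at most 0.05 and its fold change at least 1.2. Of 8 members tested, 4 were called higher, 1 lower and 3 were not called. Across all 15242 tested genes 29.2% were called higher, 29.6% lower and 58.8% in either direction, so that changed genes were common in this comparison. For 6 of the 8 tested members no parent library overlapped the ADRr range in normalized counts, against 69.2% of all tested genes. The median log2 fold change of the tested members was 0.77, against -0.0061 over all tested genes. CCL2, CCL26 and CXCR4 passed the filter on low counts through 1 group only. In bulk RNA, fewer cells making a transcript and less transcript per cell cannot be told apart.

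**Figure D1:**
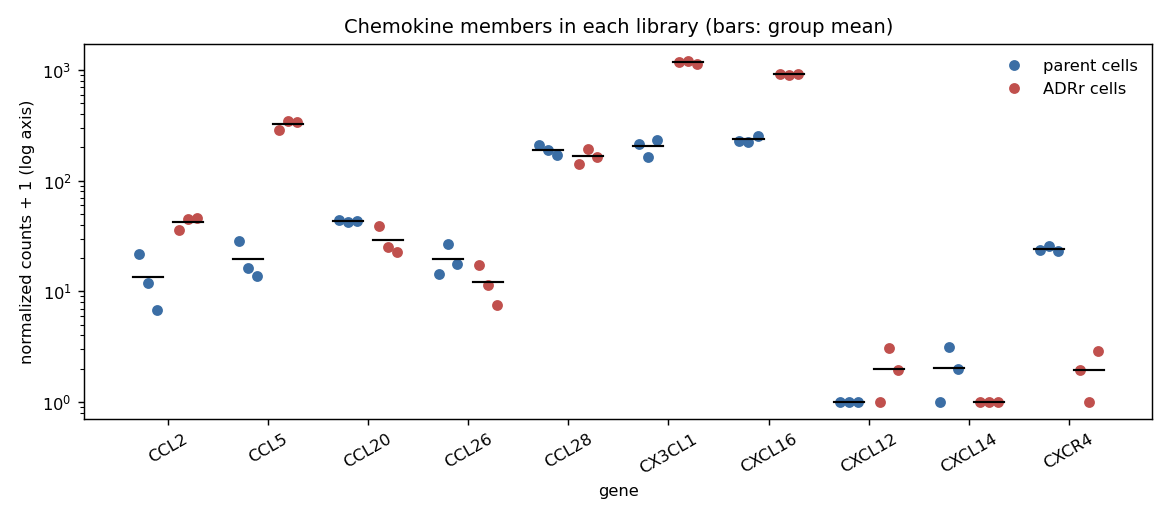
Normalized counts plus 1, on a log axis, of the 10 genes in each of the 3 parent and 3 ADRr libraries; points are libraries and bars are group means. CCL5, CX3CL1, CXCL16 and CCL2 lie higher in all ADRr libraries, CXCR4 lies lower in all of them, and CXCL12 and CXCL14 lie at 0 to 2 counts.

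CCL5 (ENSG00000271503, chr17:35871491-35880793, GRCh38) is also called RANTES and signals through receptors that include CCR1 and CCR3. It had 27, 14 and 13 counts in the parent libraries and 301, 327 and 365 in the ADRr libraries. Every ADRr library lay far above every parent library. After normalization to the mean library the level was 18.5 ± 8.11 counts in parent and 323 ± 31.8 in ADRr cells (SD, n = 3 each). The log2 fold change was 4.12 (SE 0.19, adjusted p = 1.88e-14), and 0.335% of tested genes had an increase at least as large. A gene on the opposite strand that overlaps CCL5, AC015849.1, had 0 to 2 counts in each library.

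CX3CL1 (ENSG00000006210, chr16:57372458-57385048), also called fractalkine, holds leukocytes on the cell surface while tethered and attracts them once shed. Its counts were 209, 149 and 241 in parent and 1235, 1152 and 1216 in ADRr libraries. The groups were widely separated and the 3 ADRr libraries were close to each other. Normalized counts were 204 ± 38.1 in parent and 1172 ± 35.1 in ADRr cells (SD, n = 3 each). The log2 fold change was 2.52 (SE 0.10, adjusted p = 7.09e-16), a fold of 5.73 with a 95% interval of 4.97 to 6.61.

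CXCL16 (ENSG00000161921, chr17:4733526-4739922) is the other transmembrane ligand and also acts as a scavenger receptor for oxidized lipoprotein. It had 221, 206 and 261 counts in parent and 963, 861 and 988 in ADRr libraries, with no overlap. Normalized counts were 235 ± 16.9 in parent and 913 ± 11.1 in ADRr cells (SD, n = 3 each). The log2 fold change was 1.96 (SE 0.08, adjusted p = 3.75e-15), and the 95% interval of the fold was 3.44 to 4.38. MED11 overlaps CXCL16 on the opposite strand, and the strand setting of the counting is not given in the sources used here. MED11 held 130 to 184 counts per library and was not called, at a log2 fold change of 0.10 (SE 0.14, adjusted p = 0.573).

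CCL2 (ENSG00000108691, chr17:34255218-34257203), also called MCP-1, binds CCR2. Its counts were 20, 10 and 6 in parent and 37, 42 and 48 in ADRr libraries. It passed the filter on low counts through the ADRr group only, where it was higher. All ADRr libraries lay above all parent libraries, while the highest parent library had more than 3 times the counts of the lowest. Normalized counts were 12.4 ± 7.5 in parent and 41.3 ± 5.32 in ADRr cells (SD, n = 3 each). The log2 fold change was 1.73 (SE 0.37, adjusted p = 3.14e-04), with a 95% interval of the fold from 1.94 to 5.69, wider than those of the other raised ligands.

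CXCR4 (ENSG00000121966, chr2:136114349-136118165) was the 1 member that fell. It had 22, 23 and 23 counts in parent and 1, 0 and 2 in ADRr libraries. The parent libraries were nearly equal and none of the ADRr libraries came near them. Together the parent libraries held 68 counts and the ADRr libraries 3, a depth-adjusted ratio of 23.9 with an exact 95% counting interval of 7.83 to 119. In edgeR's test the log2 fold change was -4.41 (SE 0.62, adjusted p = 1.53e-06), and 0.249% of tested genes had a decrease at least as large. CXCR4 passed the filter on low counts only through the parent group, where it was higher. Its p and its place among tested genes were therefore not independent of that filter. Without the ADRr library with 2 counts, replicate 3, the log2 fold change was -5.23. Without the ADRr library with 0 counts, replicate 2, it was -3.92. These counts were low in both groups: in parent cells, CXCR4 stood at the 15.5th percentile of FPKM among tested genes.

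**Figure D2:**
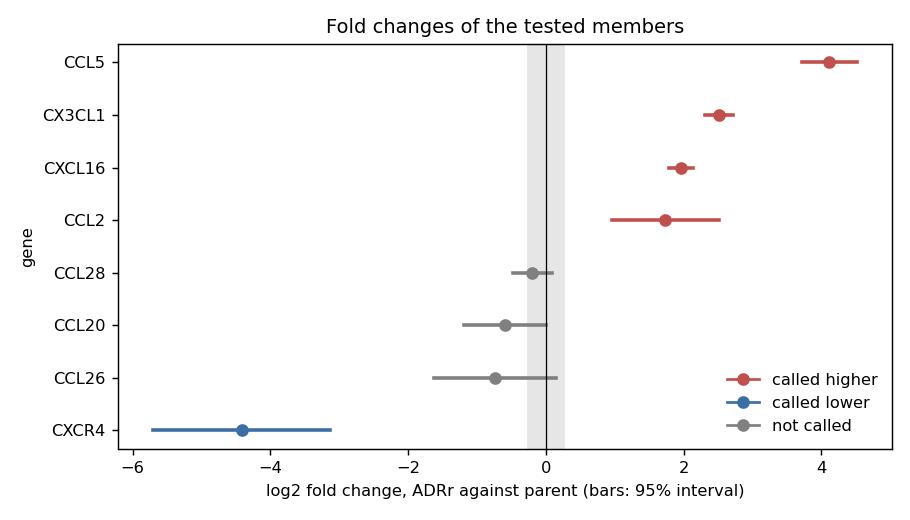
Log2 fold changes of ADRr against parent cells for the 8 tested genes, with 95% intervals; the grey band marks fold changes under 1.2. The intervals of CCL5, CX3CL1, CXCL16 and CCL2 lie to the right of the band and that of CXCR4 to its left, while those of CCL20, CCL26 and CCL28 reach into it.

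In edgeR's test over the 6 libraries CCL20, CCL26 and CCL28 were not called, although CCL20 was called under 3 of the alternatives. CCL20 attracts CCR6-bearing T cells and dendritic cells. It had 42, 38 and 43 counts in parent and 40, 23 and 23 in ADRr libraries. Normalized counts were 42.1 ± 1.07 in parent and 27.9 ± 8.92 in ADRr cells (SD, n = 3 each). In normalized counts no library crossed into the other group's range. Before normalization 1 ADRr library, replicate 1, lay within the parent range, and after it close to the parent libraries. The log2 fold change was -0.59 (SE 0.29, adjusted p = 0.0738), with a 95% interval from -1.18 to 0.0019. Without ADRr replicate 1 it was -0.87 and was called (adjusted p = 0.0248), and over all alternatives tried the adjusted p ran from 0.0248 to 0.251.

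CCL26, or eotaxin-3, attracts eosinophils through CCR3. Its counts were 13, 24 and 17 in parent and 17, 10 and 7 in ADRr libraries, so the groups overlapped. The log2 fold change was -0.74 (SE 0.43, adjusted p = 0.134), with a 95% interval of -1.63 to 0.15. CCL28 is a chemokine of mucosal epithelia that attracts lymphocytes bearing CCR10 and CCR3. With 203, 173 and 175 counts in parent and 148, 183 and 174 in ADRr libraries it also overlapped. Its log2 fold change was -0.20 (SE 0.14, adjusted p = 0.205), and the 95% interval of -0.48 to 0.083 holds no change as large as those of the 5 called members.

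CXCL12 and CXCL14, homeostatic CXC chemokines made mostly by stromal and epithelial cells, were at or under the floor of 3 counts in both groups. CXCL12 had 0 counts in all parent libraries and 0, 2 and 1 in ADRr libraries. CXCL14 had 0, 2 and 1 counts in parent libraries and 0 in all ADRr libraries. No fold change is given for them, and a difference was not detectable at this depth.

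Levels of different genes were compared per transcript length, in FPKM (fragment counts scaled by gene length and library total). In parent cells the order of mean FPKM was CXCL16 at 4.80 ± 0.34, CCL28 at 2.39 ± 0.25, CX3CL1 at 1.95 ± 0.36, CCL20 at 1.51 ± 0.04, CCL26 at 1.51 ± 0.53, CCL5 at 0.701 ± 0.309, CXCR4 at 0.599 ± 0.035 and CCL2 at 0.358 ± 0.217 (SD, n = 3 each), followed by CXCL14 and CXCL12. CXCL16 lay above CCL28 in every library comparison, CCL26 above CCL5 and CCL2 above CXCL14, while other neighbours in this order overlapped. In ADRr cells CXCL16 remained first at 18.7 ± 0.28, followed by CCL5 at 12.3 ± 1.2 and CX3CL1 at 11.2 ± 0.30, which overlapped. CCL28 came next at 2.09 ± 0.32, clear of its neighbours on both sides. CCL2 at 1.19 ± 0.15, CCL20 at 1.00 ± 0.32 and CCL26 at 0.898 ± 0.394 overlapped in turn, and CXCR4, CXCL12 and CXCL14 were last. CCL5 thus moved from the sixth place among the members to the second.

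Summed over the 9 ligands, FPKM was 13.7, 13.0 and 13.1 in parent and 46.4, 48.3 and 47.6 in ADRr libraries. CX3CL1 and CXCL16 together made up 51.0 ± 5.12% of this sum in parent and 63.2 ± 1.42% in ADRr cells, and CCL5 made up 5.26 ± 2.16% and 25.8 ± 2.10% (SD, n = 3 each). The other chemokines, led by the neutrophil attractants, summed to 440 ± 16.0 FPKM in parent and 512 ± 10.3 FPKM in ADRr cells. The 9 ligands therefore took 2.93 ± 0.14% of all chemokine FPKM in parent and 8.48 ± 0.31% in ADRr cells (SD, n = 3 each).

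The receptors of these ligands were mostly at or near 0 in both groups. CCR6, the receptor of CCL20, and CX3CR1, the receptor of CX3CL1, had 0 counts in all 6 libraries. CCR2, the receptor of CCL2, had 3 to 7 counts in parent and 5 to 9 in ADRr libraries. CCR1 and CCR3, which bind CCL5, had at most 8 counts in any library, and CCR10, which binds CCL28, had 3 to 13. None of these was tested. CXCR6, the receptor of CXCL16, was tested, having passed the filter on low counts through the ADRr group only. It had 10.5 ± 2.0 normalized counts in parent and 15.9 ± 3.32 in ADRr cells (SD, n = 3 each). It was not called (log2 fold change 0.58, SE 0.41, adjusted p = 0.218), and the 95% interval of its fold was 0.830 to 2.70.

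ACKR3, an atypical receptor that binds and removes CXCL12 without G protein signaling, fell together with CXCR4. It had 286, 231 and 240 counts in parent and 93, 60 and 70 in ADRr libraries, with no overlap. Its log2 fold change was -1.84 (SE 0.15, adjusted p = 3.28e-10). Both receptors of CXCL12 were thus lower in ADRr cells, while CXCL12 itself was at or under the floor throughout. Of 22 receptor genes 7 had 0 counts in all libraries, as had 29759 of the 58735 genes in the count table. Only 3 were tested, and ACKR3 was called lower. Over all tested genes 29.2% were called higher and 29.6% lower, and 3 genes are too few to set against these shares. None was called higher by edgeR, 0 had an unadjusted p under 0.05 in that direction, and DESeq2 and limma-trend also called 0 higher. The median log2 fold change of the 3 was -0.12.

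Both sheddases of CX3CL1 and CXCL16 changed, in opposite directions. ADAM10 had 9622 ± 568 normalized counts in parent and 2954 ± 101 in ADRr cells (SD, n = 3 each), and fell with a log2 fold change of -1.70 (SE 0.05, adjusted p = 1.42e-17). ADAM17, which cleaves these ligands when cells are stimulated, had 855 ± 56.2 in parent and 1756 ± 77.7 in ADRr cells, and rose with a log2 fold change of 1.04 (SE 0.07, adjusted p = 3.37e-12). Per length, ADAM10 was at 34.0 ± 2.05 FPKM in parent and 10.5 ± 0.38 in ADRr cells, and ADAM17 at 4.54 ± 0.30 and 9.37 ± 0.41. All ADAM10 libraries still lay above all ADAM17 libraries within each group. Shed and membrane-bound protein were not measured.

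**Figure D3:**
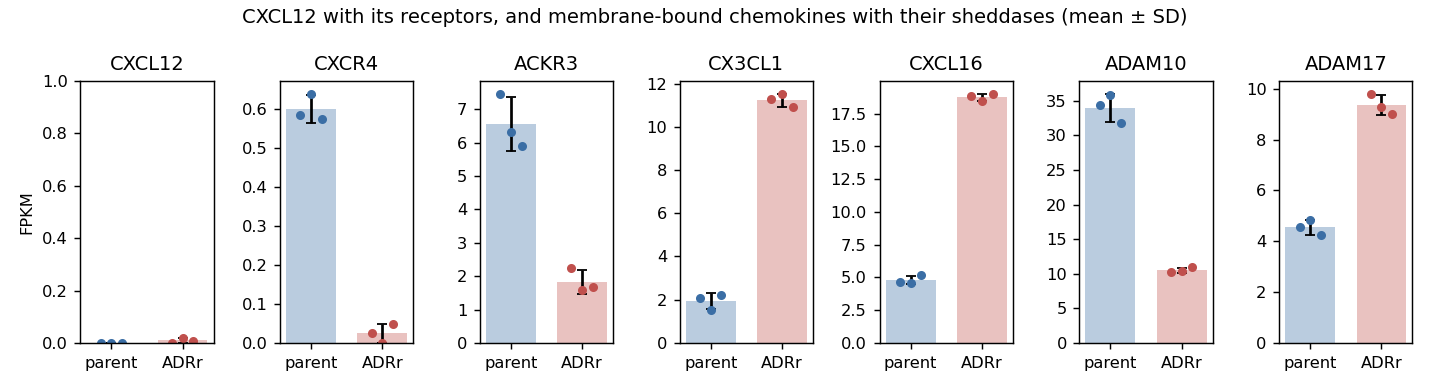
FPKM of CXCL12 and its receptors CXCR4 and ACKR3, and of CX3CL1 and CXCL16 with the sheddases ADAM10 and ADAM17; points are libraries, bars are means and whiskers are SD (n = 3 per group), each panel with its own axis from 0. CXCR4, ACKR3 and ADAM10 are lower in all ADRr libraries, CX3CL1, CXCL16 and ADAM17 are higher in all of them, and CXCL12 is near 0 in both groups.

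ADAM10 and ADAM17 belong to a list of 37 genes for shedding, matrix binding and receptor signaling. Among the 31 tested, 13 were called higher and 10 lower. Over all tested genes 29.2% were called higher and 29.6% lower. The median log2 fold change of the list was 0.16, against -0.0061 over all tested genes. MMP9 and PREX1, both of this list, passed the filter on low counts through the ADRr group only. The largest increase was that of MMP9, a gelatinase, from 12.9 ± 4.22 to 218 ± 15.8 normalized counts (log2 fold change 4.05, SE 0.21, adjusted p = 1.04e-13). SDC2, a heparan sulfate proteoglycan of the cell surface, had the largest decrease, from 1246 ± 43.1 to 321 ± 18.0 normalized counts (log2 fold change -1.96, SE 0.08, adjusted p = 6.10e-16; SD, n = 3 each).

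Most other chemokine genes were not tested. Of 37 other chemokine genes 19 had 0 counts in every library and 8 were tested, of which 7 were called higher and 1 lower, where 29.2% and 29.6% of all tested genes were called. Their median log2 fold change was 1.70, against -0.0061 over all tested genes. CCL3 and CXCL10 passed the filter on low counts through the ADRr group only. The largest increase was that of CCL3, a monocyte attractant that shares CCR1 with CCL5, from 2.73 ± 2.14 to 65.2 ± 7.10 normalized counts (log2 fold change 4.51, SE 0.41, adjusted p = 1.91e-09; SD, n = 3 each). CCL3L1, a near-identical copy, had 21.6 mean normalized counts in parent and 162 in ADRr cells (log2 fold change 2.90, SE 0.20, adjusted p = 1.31e-11). Reads of such copies can be split between them by the counting, which was not measured, so both values are uncertain. CXCL1, a neutrophil attractant, was the 1 gene called lower, from 5136 ± 47.2 to 3423 ± 122 normalized counts (log2 fold change -0.58, SE 0.05, adjusted p = 5.37e-10).

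**Figure D4:**
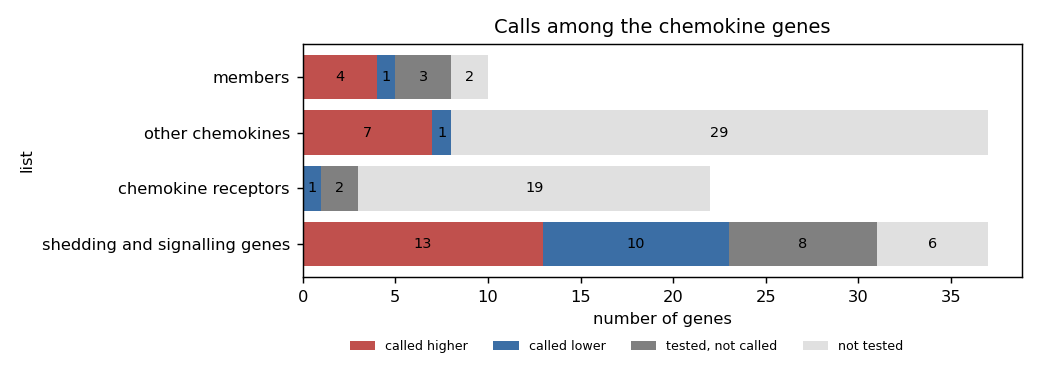
Number of genes called higher, called lower, tested but not called, and not tested, among the 10 members, 37 other chemokines, 22 receptors and 37 shedding and signalling genes. Most receptors and other chemokines were not tested, with 3 and 8 tested genes.

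The chromosomal neighbours of the called members did not change uniformly with them. For each member, the 3 nearest tested genes on each side by start position were examined. Of all tested genes, 29.2% were called higher and 29.6% lower, and counts of called neighbours were not tested against these shares. Starts lay from 2.10 kb (MED11 and CXCL16) to 2387 kb (SPOPL and CXCR4) apart, so some of these genes were not close by. None of the 6 neighbours of CCL5 was called higher and 5 were called lower, with log2 fold changes of -1.76 to -0.24. The nearest were AC015849.3 (-0.24) and AC015849.5 (-1.04). Around CCL2, which lies on the same chromosome, 1 neighbour was called higher and 4 lower. The nearest were TLK2P1 (1.03), with its start 219 kb away, and CCT6B (0.68, not called), 673 kb away. CX3CL1 had 3 neighbours called higher and none lower, the 2 with negative values lying under a fold of 1.2, and the nearest being PLLP (0.56) and CIAPIN1 (0.34), both under the 2.52 of CX3CL1 itself.

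CXCL16 had 2 neighbours called higher and 1 lower. Its nearest were MED11, given above, and AC233723.2 (log2 fold change 1.04, not called). Among the others, ARRB2, an arrestin that ends receptor signaling and starts 23.0 kb before CXCL16, rose by a log2 fold change of 1.98 (SE 0.09, adjusted p = 1.13e-14), close to the 1.96 of CXCL16. It was named after its value was seen. Around CXCR4, 3 neighbours were called higher and 2 lower. The nearest on each side were DARS-AS1 (2.50), with its start 129 kb away, and HNMT (-0.54), 1850 kb away. Of the members not called, CCL20 had AGFG1 (0.80) and DAW1 (-0.98) as nearest genes, CCL26 had HIP1 (-0.13, not called) and RHBDD2 (0.29), and CCL28 had HMGCS1 (0.14, not called) and TMEM267 (0.67). The nearest of CXCL12 were ZNF32-AS2 (0.41) and RASSF4 (-0.03), neither called, and those of CXCL14 were AC026691.1 (2.61) and TGFBI (-0.73).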

How the data were processed

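Per the labels and methods, RNA from MDA-MB-231 cells was sequenced as paired-end reads, mapped with HISAT2 (2.0.5) to GRCh38 and counted per gene by featureCounts (1.5.0-p3). The submitters' notes also name fastp and DESeq2 (1.20.0). The authors deposited raw read counts, and FPKM values that they made by dividing counts by gene length and a library total. That total was 0.905 to 1.24% above the summed counts in parent and 1.90 to 3.10% above them in ADRr libraries.

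Counts of all genes were fitted with edgeR (4.0.16; R 4.3.3): filterByExpr, TMM scaling (0.987 to 1.01), a quasi-likelihood test over the 6 libraries and Benjamini-Hochberg adjustment, leaving 15242 genes tested. Normalized counts are TMM-scaled to the mean library. DESeq2 (1.42.0) and limma-trend (3.58.1) on log2(FPKM + 1) or log2(FPKM + 0.1), other filters, scalings and thresholds, a replicate block and each library left out were alternatives. Scripts were tested on simulated data. With 3 against 3 libraries an exact two-sided permutation test cannot go below 0.1, so none was run. Counting intervals cover counting error only.

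Named genes were the members, their receptors and sheddases, the largest called increase and decrease in each list, and the nearest tested genes of each member. The members and lists were chosen with earlier results of these data known. Some receptor and marker results are not reported here.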

Additional observations from a re-analysis of the deposited data

How the results depend on the processing

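CCL5, CX3CL1, CXCL16, CCL2 and CXCR4 kept their direction and their call under each alternative that tested them. At a log2 threshold of 1.2 in either direction, 1114 of 15242 tested genes were higher and 972 lower. Of 8 other chemokines tested, 5 were then higher and 0 lower. Of 31 shedding and signalling genes tested, 3 were higher and 2 lower. With at least 10 counts in every library, 4063 of 13550 tested genes were higher and 4127 lower. Under that filter 5 members were tested, 3 were higher and 0 lower, because CCL2 and CXCR4 were not tested. Of 6 other chemokines tested there, 5 were higher and 1 lower. Leaving out a library gave 1 to 2 members called lower, the second being CCL20 without ADRr replicate 1. CCL20 ran from -0.87 to -0.43 with libraries left out, and was called at -0.34 (adjusted p = 0.0458) with limma-trend on log2(FPKM + 1) and at -0.58 (adjusted p = 0.0468) on log2(FPKM + 0.1). CCL2 ran from 1.38 to 2.31 and CXCR4 from -5.23 to -3.92 with libraries left out. On the log2(FPKM + 1) scale, which understates changes of low genes, CXCR4 was at -0.64 without a filter and CCL2 at its lowest value of 0.70. Replicate numbers did not pair the libraries (correlations of deviations of same-numbered libraries -0.046 to 0.0074). The replicate block gave 4406 genes higher and 4464 lower and changed no member's call (CCL2 1.77, CCL20 -0.61, CXCR4 -4.42). Depth limits CXCL12, CXCL14 and most receptors, which stayed near the floor.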

Other observations

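Among the chemokines outside the named genes, chosen after their values were seen, the interferon-inducible T cell attractants CXCL10 and CXCL11 rose in ADRr cells. CXCL10 went from 8.21 to 30.4 mean normalized counts (log2 fold change 1.88, SE 0.38; adjusted p = 1.66e-04) and CXCL11 from 13.3 to 154 (log2 fold change 3.51, SE 0.22; adjusted p = 3.88e-12). CXCR3, a receptor of both, had 0 counts in all 6 libraries. DPP4, a surface protease that trims several chemokines at their amino end, rose from 369 to 599 mean normalized counts (log2 fold change 0.70, SE 0.09; adjusted p = 1.81e-07).

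RGS16, which shortens G protein signaling downstream of chemokine receptors, had 0 counts in all parent libraries and 11, 12 and 9 in ADRr libraries. It did not pass the filter on low counts and was not tested.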
